A study of Drosophila melanogaster with 17 samples.

Results

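The 10 genes described here are the heat shock genes Hsf, Hsp23, Hsp26, Hsp27, Hsp67Bc, Hsp68, Hsp83, DnaJ-1, Hsp70Ba and Hsp70Bb, chosen by symbol from a count table of 17559 fly genes. All 10 were among the 16163 genes with a read in at least 1 library, which were the genes tested. The libraries were made from whole fly brains at an age of 10 days, and the pan-neuronal driver nSyb-Gal4 was used to express human tyrosyl-tRNA synthetase (TyrRS). E196K is a mutation of TyrRS that causes Charcot-Marie-Tooth neuropathy, and ∆NLS marks a protein whose nuclear localization signal was disrupted (the sample labels write NLS). The 17 libraries comprised 4 of TyrRS-E196K (1 transgene copy), 4 of TyrRS-E196K∆NLS (3 copies), 3 of TyrRS-WT (2 copies), 3 of TyrRS-WT∆NLS (2 copies) and 3 of the control nSyb-Gal4>+ (0 copies), with copies as the study's methods give them. All genotypes carried the driver, and only the control lacked a UAS transgene. Copy number changed together with the genotype, except between TyrRS-WT and TyrRS-WT∆NLS. The paper describes the transgenes as similar in expression level, with that of TyrRS-WT∆NLS slightly lower. The driver acts in neurons whereas whole brains were sequenced, so that fewer cells of a type and less RNA per cell cannot be told apart. The sources used here do not state the sex of the flies or the number of brains in a library, and the methods, which describe measurements as independent, do not say whether libraries of a genotype came from separate groups of flies. The p-values measure the spread between these libraries.

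Heat shock genes are switched on when proteins misfold. The heat shock factor, encoded by Hsf, then forms trimers that bind heat shock elements in the promoters of chaperone genes. Small heat shock proteins hold unfolded proteins without using ATP, Hsp70 proteins refold them together with J-domain partners such as DnaJ-1, and Hsp83, the fly Hsp90, matures kinases, receptors and other clients. The fly genome holds several nearly identical Hsp70 copies, which are almost silent without stress. The hsp70 gene also has a technical role: the pUAST vector, into which the ∆NLS cDNAs were cloned according to the methods, carries a basal hsp70 promoter in front of the cDNA and a mini-white gene, a short form of white (w), as its visible marker.

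Reads on genes ranged from 29380481 to 56030758 per library, and the control had the lowest median, 37036266. Values are given as CPM, the reads of a gene scaled to the same total in each library after correction of the totals by TMM factors, and 1 CPM was thus 28.3 to 53.8 reads. Differences are log2 fold changes with their standard errors from the quasi-likelihood test of edgeR, fitted to all libraries, and a gene was called at a Benjamini-Hochberg adjusted p under 0.05 over all genes tested. All comparisons with control share the same 3 control libraries. The 5 neuron markers elav, nSyb, Syt1, brp and para summed to 5610 to 6420 CPM in TyrRS-E196K, 5570 to 6060 in TyrRS-E196K∆NLS, 5010 to 6110 in TyrRS-WT, 4600 to 6090 in TyrRS-WT∆NLS, and in control to 5090 to 7120. None of them was called in a comparison with control. Of the 5 glial markers alrm was called lower in TyrRS-E196K, by 0.45 on the log2 scale (edgeR, adjusted p = 0.0395). The 5 fat body markers measured summed to 10300 to 31300 CPM in TyrRS-E196K, 32900 to 46600 CPM in TyrRS-E196K∆NLS, 17100 to 33300 CPM in TyrRS-WT, 17200 to 31200 CPM in TyrRS-WT∆NLS, and in control to 22600 to 30700 CPM. The 7 retina markers summed to 7750 to 9940 CPM in TyrRS-WT, against 14100 to 18500 CPM in control, and muscle markers to 155 to 463 CPM over all libraries. The part of these differing amounts of other tissue in the results was not tested.

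Of the 10 genes, 1 differed from control at this threshold, and it was the same gene, Hsp70Bb, in each of the 4 transgenic genotypes. This is to be read against 6.42% of all genes called in TyrRS-E196K, 4.78% in TyrRS-E196K∆NLS, 2.33% in TyrRS-WT and 3.76% in TyrRS-WT∆NLS. The median log2 difference of the 10 genes was -0.38 in TyrRS-E196K, -0.036 in TyrRS-E196K∆NLS, 0.42 in TyrRS-WT and 0.19 in TyrRS-WT∆NLS, where the median of all genes was 0.

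**Figure D1:**
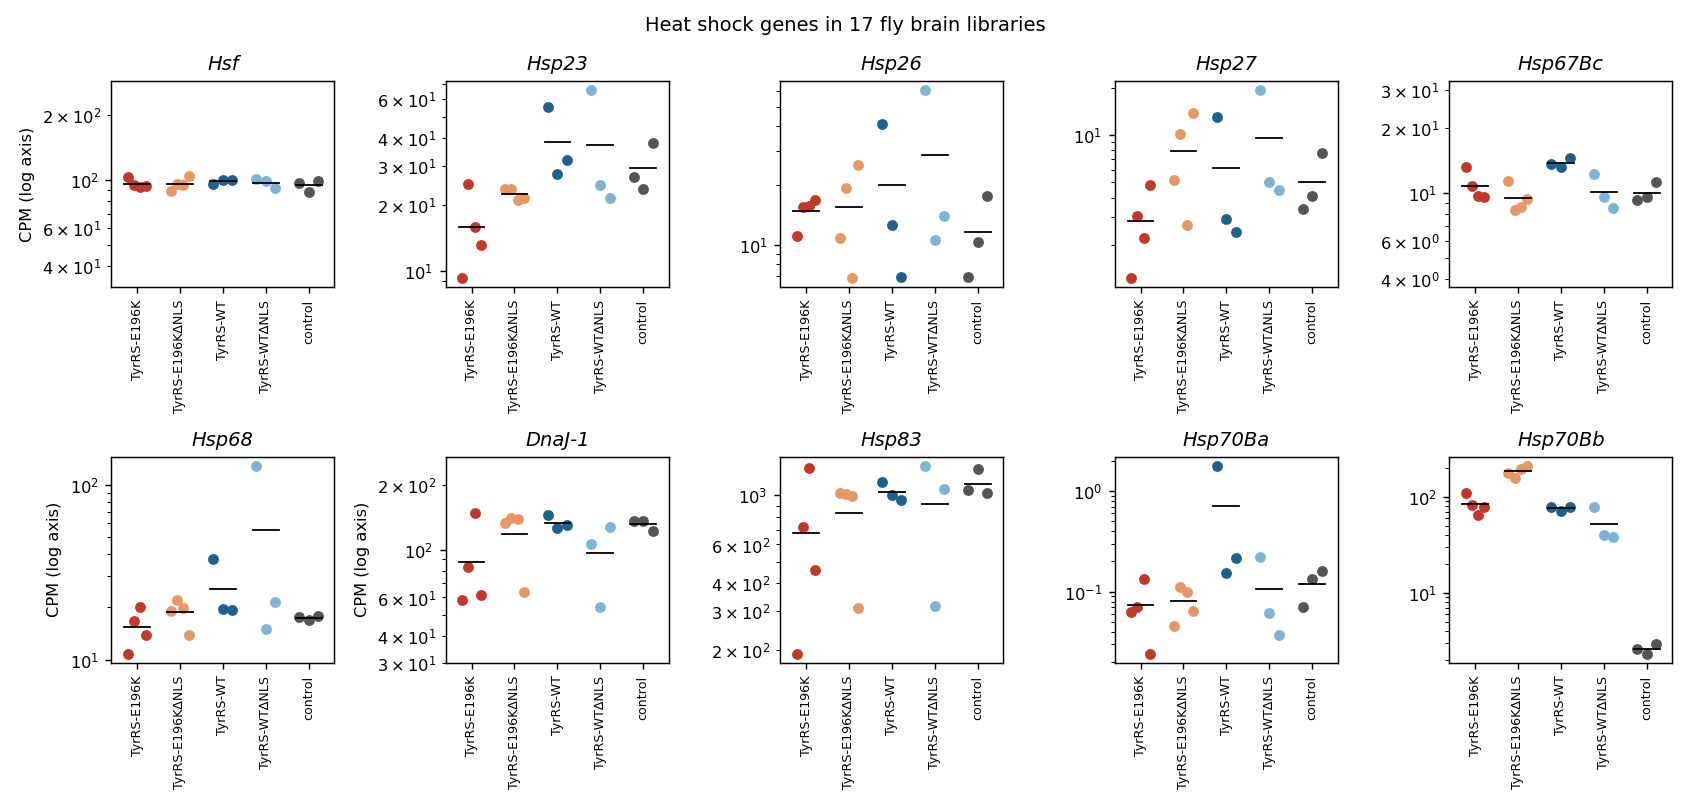
Level of each heat shock gene in CPM on a log axis, with 1 point per library and a line at the mean of the genotype. Hsp70Bb sits between 37.9 and 207 CPM in the transgenic libraries and between 2.36 and 2.96 CPM in control, whereas the control points of the other genes fall within or close to the range of the transgenic ones.

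Hsf itself, the regulator of the response, had the most even level of the 10 genes. It was at 103, 95.2, 93.4 and 94.2 CPM in TyrRS-E196K, at 88.8, 96.2, 95.0 and 105 CPM in TyrRS-E196K∆NLS, at 95.6, 100 and 101 CPM in TyrRS-WT, at 102, 98.8 and 92.5 CPM in TyrRS-WT∆NLS and at 97.5, 88.0 and 99.1 CPM in control. All groups overlapped, and the highest library was 1.19 times the lowest. The differences from control were 0.024 ± 0.064 in TyrRS-E196K, 0.019 ± 0.064 in TyrRS-E196K∆NLS, 0.060 ± 0.069 in TyrRS-WT and 0.041 ± 0.069 in TyrRS-WT∆NLS (log2, ± SE). Its spread within genotypes, 0.0773 on the log2 scale, was at the percentile 9.37 among the 9371 genes whose mean reached 1 CPM. The transcript level says nothing of the activity of the protein, which is set after translation.

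Hsp70Bb, a single-exon gene on chromosome 3R (12505793 to 12508139 on the plus strand of BDGP6), was far higher in all transgenic brains. It was at 108, 81.9, 64.5 and 78.3 CPM in TyrRS-E196K, at 174, 154, 195 and 207 CPM in TyrRS-E196K∆NLS, at 77.8, 70.8 and 77.4 CPM in TyrRS-WT and at 78.6, 40.2 and 37.9 CPM in TyrRS-WT∆NLS. Control libraries had 2.62, 2.36 and 2.96 CPM, from 74, 89 and 130 reads. No transgenic library overlapped with control, and the lowest of them exceeded the highest control library more than 10-fold. Relative to control Hsp70Bb was 31.4-fold higher in TyrRS-E196K (log2 4.97 ± 0.27, edgeR adjusted p = 1.63e-08), 68.9-fold in TyrRS-E196K∆NLS (6.11 ± 0.29, adjusted p = 1.91e-09), 28.4-fold in TyrRS-WT (4.83 ± 0.28, adjusted p = 3.6e-08) and 19.7-fold in TyrRS-WT∆NLS (4.30 ± 0.27, adjusted p = 1.15e-07). These calls held under every alternative tried.

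The other Hsp70 copies did not share this difference. Hsp70Ba, encoded on the minus strand of 3R (12465453 to 12467776), had 3, 3, 7 and 1 reads in TyrRS-E196K, 2, 6, 5 and 3 in TyrRS-E196K∆NLS, 85, 7 and 10 in TyrRS-WT, 12, 3 and 2 in TyrRS-WT∆NLS and 2, 5 and 7 in control. With few reads in most libraries, differences were detectable only where they were large. Its difference from control was 2.50 ± 0.84 in TyrRS-WT (edgeR adjusted p = 0.157) and 0.55 without TyrRS-WT replicate 1, the library with 85 reads. In the other genotypes it was -0.70 ± 0.94 (TyrRS-E196K), -0.59 ± 0.92 (TyrRS-E196K∆NLS) and -0.20 ± 0.94 (TyrRS-WT∆NLS).

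Hsp70Aa, Hsp70Ab, Hsp70Bbb and Hsp70Bc were not called in any comparison with control. Together with Hsp70Ba they summed to 1.17 to 4.74 CPM in TyrRS-E196K, 1.60 to 3.09 CPM in TyrRS-E196K∆NLS, 1.98 to 9.34 CPM in TyrRS-WT, 2.04 to 15.1 CPM in TyrRS-WT∆NLS, and in control to 2.23 to 2.59 CPM. The upper ends came from replicate 1 of TyrRS-WT and replicate 1 of TyrRS-WT∆NLS, and most of the 15.1 CPM was Hsp70Bc, at 11.6 CPM. Hsp70Aa had at most 12 reads in a library and 0 in the 3 control libraries, where a count of 0 allows up to 3 reads each, so no fold is given. The share of all Hsp70 reads that lay on Hsp70Bb was 93.1 to 98.7% in TyrRS-E196K, 98.1 to 99.2% in TyrRS-E196K∆NLS, 89.3 to 97.5% in TyrRS-WT and 83.9 to 95.2% in TyrRS-WT∆NLS, against 48.4 to 54.0% in control. The copies are nearly identical in sequence and the table lists no reads as not uniquely aligned, so how reads were divided among copies cannot be seen from the counts and the level of any single copy is uncertain. Hsp70Bbb, for example, had 0 reads in replicate 1 of TyrRS-WT∆NLS and in replicate 1 of TyrRS-E196K∆NLS.

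**Figure D2:**
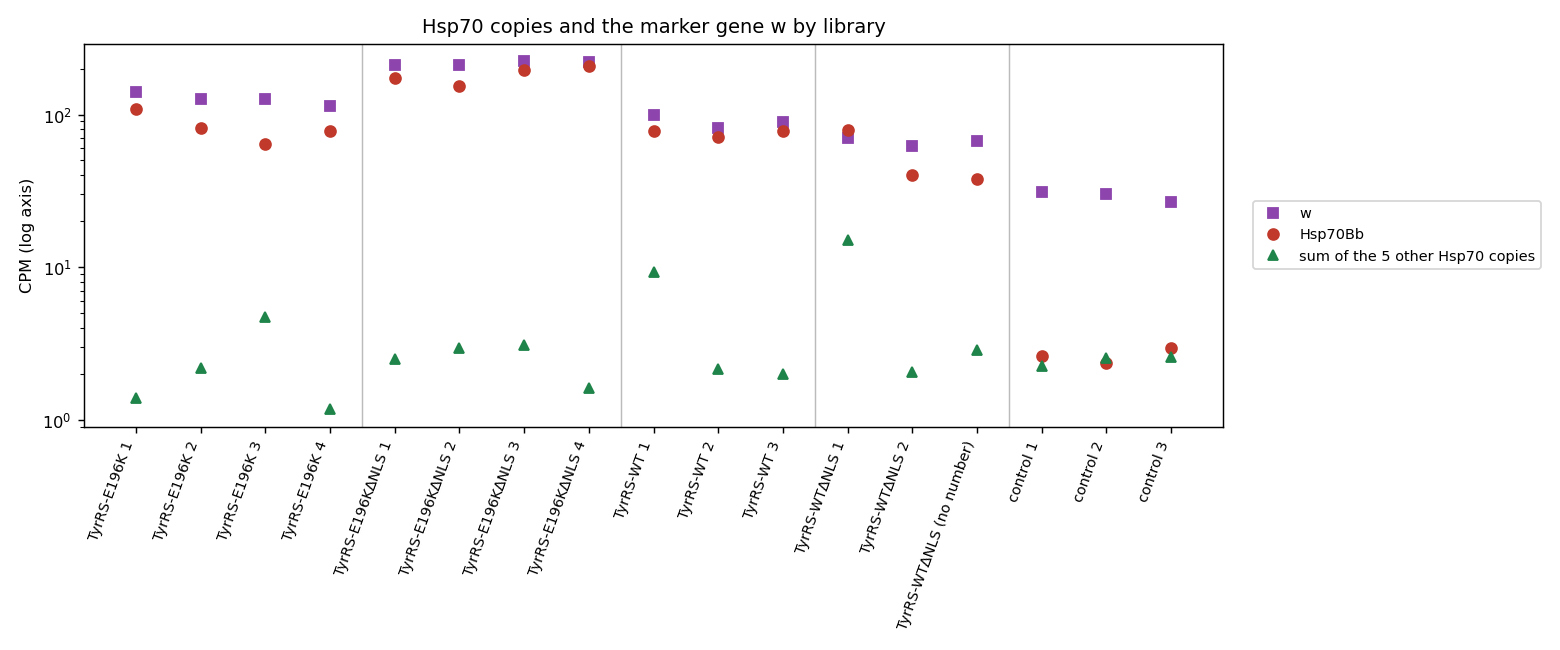
CPM on a log axis of w (squares), Hsp70Bb (circles) and the sum of the 5 other Hsp70 copies (triangles) in each library, with grey lines between genotypes. Hsp70Bb and w are higher in all transgenic libraries than in control, while the other copies stay between 1.17 and 15.1 CPM throughout.

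The gene w moved with Hsp70Bb. It encodes a transporter subunit needed for eye pigment, and reads of a mini-white marker would be counted on it. It was at 140, 126, 126 and 113 CPM in TyrRS-E196K, 211, 210, 223 and 222 CPM in TyrRS-E196K∆NLS, 99.9, 81.7 and 89.7 CPM in TyrRS-WT, 69.7, 62 and 67 CPM in TyrRS-WT∆NLS and 31.0, 30.2 and 26.8 CPM in control. All 4 transgenic genotypes lay above control without overlap, by 2.11 ± 0.087, 2.88 ± 0.090, 1.62 ± 0.089 and 1.17 ± 0.088 in that order (log2, edgeR, largest adjusted p = 8e-07). Group means of Hsp70Bb and w had the same order, highest in TyrRS-E196K∆NLS, followed by TyrRS-E196K, TyrRS-WT, TyrRS-WT∆NLS and control. The transgene copies in the same order were 3, 1, 2, 2 and 0. The part of vector sequence in the Hsp70Bb and w counts was not tested.

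Differences among transgenic genotypes were smaller. Against TyrRS-WT, Hsp70Bb differed in TyrRS-E196K by 0.14 ± 0.21 (edgeR adjusted p = 0.847), and the libraries overlapped. None of the 10 genes was called in this comparison, where 1.55% of all genes were. An unadjusted p under 0.05 was found for 3, Hsp23, Hsp67Bc and Hsp70Ba. The share of all genes at that threshold was not computed, so this count cannot be read as a result. Hsp70Ba differed by -3.20 ± 0.79 (edgeR adjusted p = 0.0572) and by -1.26 without TyrRS-WT replicate 1. For w the difference was 0.48 ± 0.082 (adjusted p = 0.00442).

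Against TyrRS-E196K∆NLS, Hsp70Bb was lower in TyrRS-E196K, by 1.13 ± 0.20 on the log2 scale (edgeR adjusted p = 0.00235), and no libraries overlapped. It was the 1 gene called of 10, against 5.7% of all genes. The gene w was lower by 0.78 ± 0.075 (adjusted p = 9.33e-06). In this pair the genotype with a nuclear localization signal carried 1 transgene copy and the other carried 3, and these cannot be told apart.

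Against TyrRS-WT∆NLS, with 2 copies in both genotypes, Hsp70Bb was 0.53 ± 0.23 higher in TyrRS-WT but not called (edgeR adjusted p = 0.462). Without TyrRS-WT∆NLS replicate 1, at 78.6 CPM, the difference was 0.95 and called (edgeR adjusted p = 0.0172). This was the 1 call under 23 alternatives, which spanned 0.34 to 0.95. In that replicate Hsp70Bb was 1.13 times w, against 0.648 and 0.565 times in the other libraries of its genotype. None of the 10 genes was called, against 1.08% of all genes. An unadjusted p under 0.05 was found for 3, Hsp67Bc, Hsp70Ba and Hsp70Bb. Here too the share of all genes at that threshold was not computed, so the count cannot be read as a result. The w difference was 0.45 ± 0.087 (adjusted p = 0.0146), a call lost without TyrRS-WT replicate 1 (adjusted p = 0.0923), TyrRS-WT replicate 3 (adjusted p = 0.0548) or TyrRS-WT∆NLS replicate 2 (adjusted p = 0.0955), with the replicate block (adjusted p = 0.0511) or with only the genotypes compared (adjusted p = 0.141).

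The difference in Hsp70Bb between TyrRS-E196K and TyrRS-E196K∆NLS was not the same as that between TyrRS-WT and TyrRS-WT∆NLS. The interaction, the first difference minus the second, was -1.66 ± 0.30 (edgeR adjusted p = 0.00904). Hsp70Bb was the 1 gene called of 10, against 1.45% of all genes. The interaction of w was -1.23 ± 0.12 (adjusted p = 2.58e-05). The mutant pair differed in transgene copies, 1 against 3, and the wild-type pair did not, so that the nuclear localization signal and the copy number cannot be told apart here.

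**Figure D3:**
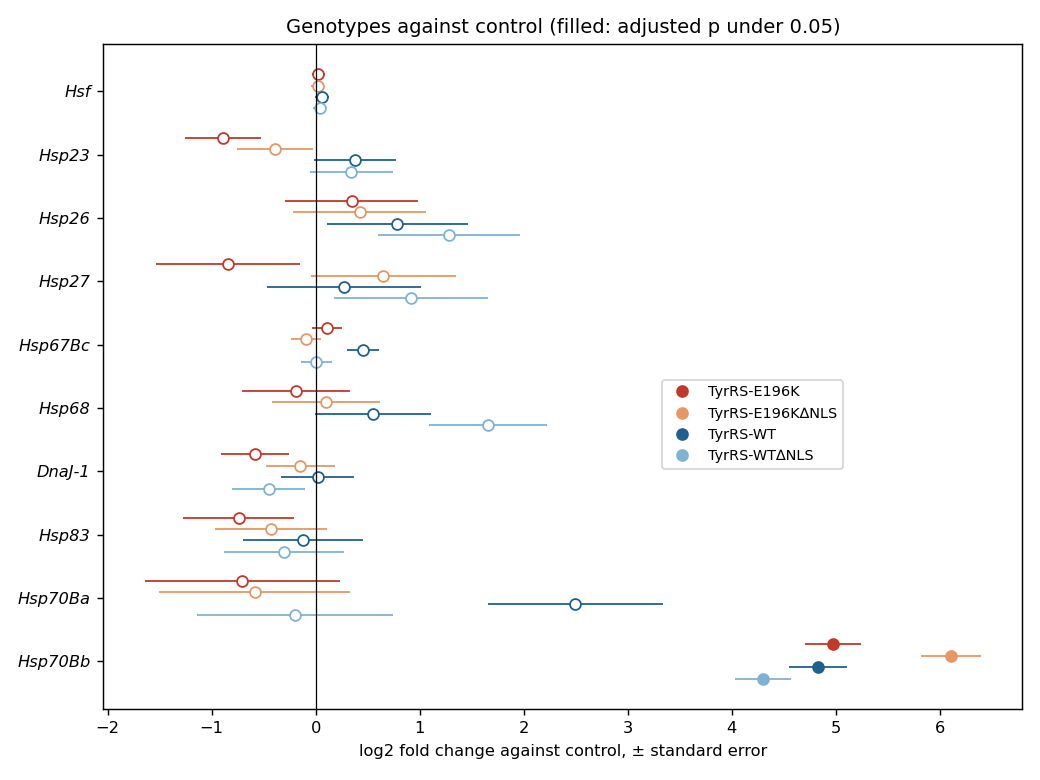
Log2 fold change against control of each heat shock gene in the 4 transgenic genotypes, with bars of 1 standard error and filled points at an adjusted p under 0.05. Only the Hsp70Bb points are filled, between 4.30 and 6.11.

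Hsp23, Hsp26, Hsp27 and Hsp67Bc, which encode small heat shock proteins, lie together on chromosome 3L, between 9371511 and 9385694. Hsp23 was at 9.33, 24.9, 15.8 and 13.2 CPM in TyrRS-E196K, 23.5, 23.6, 20.9 and 21.3 CPM in TyrRS-E196K∆NLS, 55.2, 27.5 and 31.8 CPM in TyrRS-WT, 65.6, 24.5 and 21.5 CPM in TyrRS-WT∆NLS and 26.5, 23.5 and 37.9 CPM in control. In 3 of 4 TyrRS-E196K libraries it was below all control libraries. The difference was -0.89 ± 0.37 against control (edgeR adjusted p = 0.177) and -1.27 ± 0.37 against TyrRS-WT (adjusted p = 0.129). The second was called under 1 of 23 alternatives, without TyrRS-WT∆NLS replicate 1 in the fit (edgeR adjusted p = 0.0374). The highest adjusted p over the alternatives was 0.495.

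Hsp26 and Hsp27 varied mainly from library to library. Hsp26 was at 11.1, 15.5, 15.8 and 16.9 CPM in TyrRS-E196K, 10.9, 19.4, 6.82 and 25.4 CPM in TyrRS-E196K∆NLS, 40.8, 12.6 and 6.87 CPM in TyrRS-WT, 60.4, 10.6 and 14.1 CPM in TyrRS-WT∆NLS and 6.89, 10.3 and 17.7 CPM in control. Hsp27 was at 1.23, 3.05, 2.21 and 4.82 CPM in TyrRS-E196K, 5.20, 10.2, 2.67 and 13.8 CPM in TyrRS-E196K∆NLS, 13.1, 2.92 and 2.41 CPM in TyrRS-WT, 19.3, 4.99 and 4.44 CPM in TyrRS-WT∆NLS and 3.36, 4.11 and 7.68 CPM in control. Both overlapped with control in every genotype, and both were highest in replicate 1 of TyrRS-WT∆NLS. In TyrRS-WT, Hsp26 differed from control by 0.79 ± 0.68 and by -0.26 without TyrRS-WT replicate 1. In TyrRS-WT∆NLS, Hsp26 differed by 1.28 ± 0.68 and by 0.084 without TyrRS-WT∆NLS replicate 1. For Hsp27 the same pairs of values were 0.27 ± 0.74 and -0.93 in TyrRS-WT, and 0.92 ± 0.74 and -0.10 in TyrRS-WT∆NLS.

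Hsp67Bc, a small heat shock protein linked to autophagy, was more even. It was at 13.1, 10.7, 9.69 and 9.60 CPM in TyrRS-E196K, 11.4, 8.29, 8.55 and 9.39 CPM in TyrRS-E196K∆NLS, 13.6, 13.1 and 14.5 CPM in TyrRS-WT, 12.2, 9.51 and 8.48 CPM in TyrRS-WT∆NLS and 9.26, 9.55 and 11.2 CPM in control. TyrRS-WT lay above control without overlap, by 0.46 ± 0.15, but did not pass the threshold (edgeR adjusted p = 0.153).

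Hsp68, an inducible Hsp70 relative, is a gene apart from the near-identical copies, on 3R (24055080 to 24057310). It was at 10.8, 16.5, 20 and 13.8 CPM in TyrRS-E196K, 19, 21.9, 19.8 and 13.8 CPM in TyrRS-E196K∆NLS, 37.8, 19.4 and 19.1 CPM in TyrRS-WT, 128, 15.1 and 21.4 CPM in TyrRS-WT∆NLS and 17.5, 16.9 and 17.7 CPM in control. A single library of TyrRS-WT∆NLS, replicate 1, was far above all others. Its difference from control was -0.19 ± 0.52 in TyrRS-E196K, 0.10 ± 0.52 in TyrRS-E196K∆NLS, 0.55 ± 0.56 in TyrRS-WT and 1.65 ± 0.57 in TyrRS-WT∆NLS (edgeR adjusted p = 0.132). Without TyrRS-WT∆NLS replicate 1 the last value was 0.070, and without TyrRS-WT∆NLS replicate 2 it was 2.10 and called (adjusted p = 0.0418). None of Hsp23, Hsp26, Hsp27, Hsp67Bc and Hsp68 was called against control in the fit of all libraries.

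Replicate 1 of TyrRS-WT∆NLS had the highest level of Hsp23, Hsp26, Hsp27, Hsp68 and Hsp83 of all 17 libraries. It also had the highest stv, a BAG-domain partner of Hsp70, at 208 CPM against 76.3 to 103 CPM in the other libraries. Hsp70Bc, at 11.6 CPM, and Hsp70Ab, at 3.01 CPM, were highest there too. Replicate 1 of TyrRS-WT was second in Hsp23, Hsp26 and Hsp68. Hsf was at 102 CPM in the first library and 95.6 CPM in the second, within the range of the others.

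**Figure D4:**
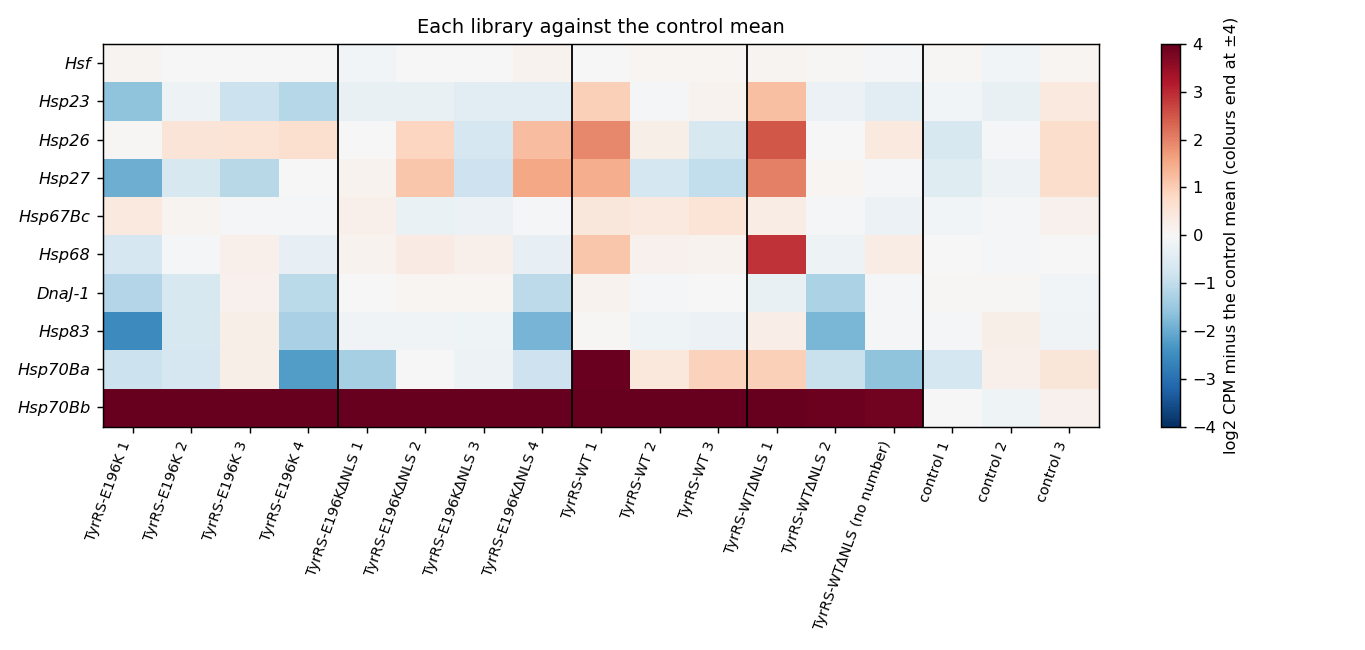
Log2 CPM of each heat shock gene in each library minus the mean log2 CPM of control, in colours that end at a difference of 4. Replicate 1 of TyrRS-WT∆NLS and replicate 1 of TyrRS-WT stand out in Hsp23, Hsp26, Hsp27 and Hsp68, and 4 libraries are low in both Hsp83 and DnaJ-1.

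Hsp83 and DnaJ-1, which are active in unstressed cells and rise further on heat shock, had a pattern of their own. Hsp83 was at 193, 717, 1330 and 461 CPM in TyrRS-E196K, 1020, 1020, 996 and 311 CPM in TyrRS-E196K∆NLS, 1150, 1000 and 958 CPM in TyrRS-WT, 1360, 316 and 1070 CPM in TyrRS-WT∆NLS and 1050, 1310 and 1030 CPM in control. DnaJ-1 was at 58.1, 83.4, 148 and 61.6 CPM in TyrRS-E196K, 132, 140, 139 and 63.4 CPM in TyrRS-E196K∆NLS, 144, 126 and 130 CPM in TyrRS-WT, 106, 54.4 and 127 CPM in TyrRS-WT∆NLS and 136, 136 and 122 CPM in control. The same 4 libraries were lowest in both genes, replicates 1 and 4 of TyrRS-E196K, replicate 4 of TyrRS-E196K∆NLS and replicate 2 of TyrRS-WT∆NLS. These 4 libraries came from 3 genotypes, and none was a TyrRS-WT or control library.

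As groups, the genotypes did not differ from control at the threshold. Hsp83 differed by -0.74 ± 0.54 in TyrRS-E196K, -0.43 ± 0.54 in TyrRS-E196K∆NLS, -0.12 ± 0.58 in TyrRS-WT and -0.31 ± 0.58 in TyrRS-WT∆NLS (log2, edgeR). DnaJ-1 differed by -0.58 ± 0.33, -0.15 ± 0.33, 0.021 ± 0.35 and -0.45 ± 0.35 in the same order. The TyrRS-E196K∆NLS libraries were all below the control libraries in Hsp83, the highest at 1021 CPM against a lowest of 1026 CPM. This gap was far smaller than the spread of Hsp83 within genotypes.

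The spread between libraries of 1 genotype set most of these genes apart from the bulk of the transcriptome. The median gene had a within-genotype SD of 0.139 on the log2 scale. It was 1.01 for Hsp27, 0.926 for Hsp26, 0.865 for Hsp83, 0.749 for Hsp68, 0.534 for Hsp23 and 0.495 for DnaJ-1, so that 6 of the 9 genes whose mean reached 1 CPM were above the percentile 90. Hsp70Bb was at 0.308. Of its variance over all libraries 1.59% lay within genotypes, against 0.862% for w and 42.7 to 91.6% for the other 9 genes.

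Some of the genes varied together across libraries. After the mean of each genotype was subtracted, 2 of 45 pairs passed a permutation test of Pearson's r within genotypes with Benjamini-Hochberg adjustment over the pairs (100000 resamples, two-sided, 17 libraries). Hsp26 and Hsp27 had Pearson's r = 0.933 (permutation p = 5e-05, adjusted p = 0.00225) and Spearman's rho = 0.926 (permutation p = 6e-05), and r = 0.894 without the 2 libraries farthest from the median. Hsp83 and DnaJ-1 had r = 0.931 (permutation p = 0.00165, adjusted p = 0.0371), rho = 0.914 (permutation p = 0.0014) and r = 0.938 without 2 libraries. For Hsp23 and Hsp68 the call depended on the measure: r = 0.816 missed the threshold (permutation p = 0.0135, adjusted p = 0.0958), whereas rho = 0.875 passed it (permutation p = 0.0023, adjusted p = 0.0345).

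**Figure D5:**
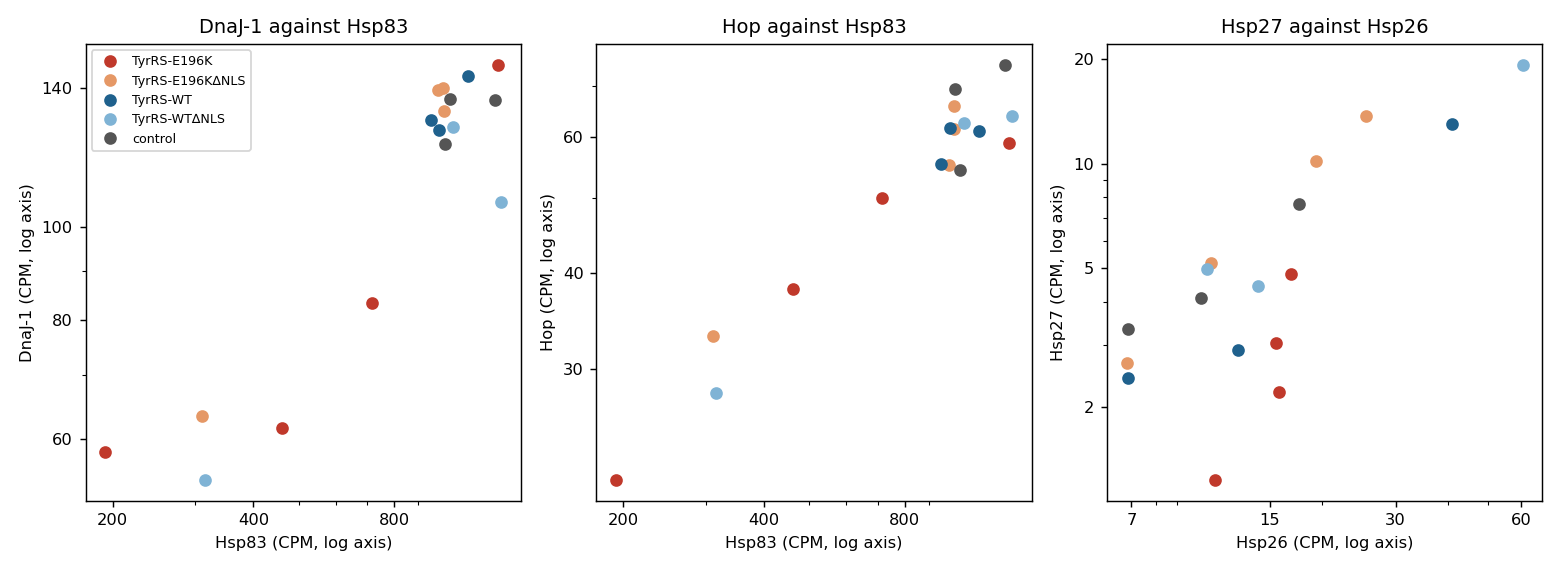
Levels in CPM on log axes of DnaJ-1 against Hsp83, Hop against Hsp83 and Hsp27 against Hsp26, with 1 point per library coloured by genotype. Low Hsp83 goes with low DnaJ-1 and low Hop in libraries of TyrRS-E196K, TyrRS-E196K∆NLS and TyrRS-WT∆NLS.

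The genes most like these in pattern were sought among the genes whose mean reached 1 CPM, as a description over 17 libraries that share genotypes. For Hsp70Bb they were CG42260 (r = 0.944), w (0.935), CG17684 (0.914), CR14033 (0.913) and CG31664 (0.901). Within genotypes these values were 0.244 to 0.392, so the likeness lay mostly between genotypes. For the mean of Hsp23, Hsp26 and Hsp27 they were CG4325 (r = 0.796), Mtap (0.772), Hsp68 (0.760), alpha-Est10 (0.758) and Debcl (0.739). For Hsp83, an anchor added after its values were seen, they were Hop (r = 0.969), CG1416 (0.950), CG5290 (0.939), CG18011 (0.926) and DnaJ-1 (0.921). Hop is the co-chaperone that joins Hsp70 to Hsp90, and it was at 21.5, 38.1, 33.1 and 27.9 CPM in the 4 libraries lowest in Hsp83, against 50 to 74.5 CPM in the others.

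Per kilobase of exon, the mean over all libraries was highest for Hsp83, at 304 CPM per kb, followed by DnaJ-1 (51.9), Hsp70Bb (36.4), Hsf (33.2), Hsp23 (31.0), Hsp26 (17.6), Hsp68 (11.3), Hsp67Bc (10.9), Hsp27 (3.80) and Hsp70Ba (0.0871). The constitutive cognate Hsc70-4 was at 595 CPM per kb. In control alone Hsp70Bb was at 1.13 CPM per kb. Some of these genes overlap others on the genome and strand was not recorded. The overlapping genes had 1.71 to 3.81 CPM (CG14966 at Hsp83), 0.237 to 0.568 CPM (CG6000 at Hsp68) and 0 reads (CR43483 at Hsp27). Reads on shared exons may have been counted as ambiguous, so these counts do not show how many reads were lost to overlap.

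Of the 51 other heat shock response genes tested, 4 were called against control in TyrRS-E196K (2 higher and 2 lower), 1 in TyrRS-E196K∆NLS (higher), 1 in TyrRS-WT (higher) and 2 in TyrRS-WT∆NLS (1 higher and 1 lower). The shares of all genes called were 6.42%, 4.78%, 2.33% and 3.76% in the same order. CG7409, a small heat shock protein gene, was higher than control in TyrRS-E196K (log2 1.63 ± 0.29, edgeR adjusted p = 0.00349), TyrRS-E196K∆NLS (1.33 ± 0.29, adjusted p = 0.0117) and TyrRS-WT∆NLS (1.70 ± 0.30, adjusted p = 0.0047). In TyrRS-WT its difference was 1.05 ± 0.30 (adjusted p = 0.0881), which was called with DESeq2 (adjusted p = 0.0132) and without TyrRS-WT replicate 3 (adjusted p = 0.0154). The TyrRS-E196K∆NLS call was lost without control replicate 1 (adjusted p = 0.0637) or without control replicate 3 (adjusted p = 0.0712). Hsp67Ba, another small heat shock gene, was lower in TyrRS-E196K (-0.86 ± 0.17, adjusted p = 0.00664) and in TyrRS-WT∆NLS (-0.69 ± 0.18, adjusted p = 0.0461), and the second call held under 8 of 23 alternatives.

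FKBP59, an immunophilin, was lower in TyrRS-E196K (-0.37 ± 0.078, edgeR adjusted p = 0.00969), and TotX, a secreted stress peptide of the Turandot family, was higher (3.16 ± 0.77, adjusted p = 0.0235). In the other genotypes TotX differed from control by 1.83 ± 0.73 (TyrRS-E196K∆NLS, adjusted p = 0.208), 3.11 ± 0.79 (TyrRS-WT, adjusted p = 0.0517) and 2.21 ± 0.77 (TyrRS-WT∆NLS, adjusted p = 0.135). In the same order these were called under 1, 5 and 2 of 23 alternatives. The lowest adjusted p was 0.0453 (only the genotypes compared), 0.00207 (DESeq2) and 0.0304 (only the genotypes compared). The highest adjusted p over the alternatives was 0.402, 0.284 and 0.335. The TotX call in TyrRS-E196K was lost without TyrRS-E196K replicate 4 (adjusted p = 0.0598), control replicate 1 (adjusted p = 0.0834) or control replicate 3 (adjusted p = 0.108), and the FKBP59 call without control replicate 3 (adjusted p = 0.072) or with only the genotypes compared in the fit (adjusted p = 0.053). Hsc70-2, a cognate of Hsp70, was at 69.1, 58.5 and 67.5 CPM in TyrRS-WT and at most 0.288 CPM in every other library (8.90 ± 0.52 against control, adjusted p = 4.36e-08). Hsp22, the small heat shock gene next to Hsp67Bc, had 0 reads in all 17 libraries. Its exons are shared with the gene annotated as CG4456, and reads on them may have been counted as ambiguous. The count of 0 therefore does not show that Hsp22 was not expressed.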

How the data were processed

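Poly(A) RNA libraries were made without strand information and sequenced as paired reads. According to the submitters' processing notes and the study's methods, the authors trimmed reads with Trimmomatic 0.32, mapped them to BDGP6 with TopHat2 2.0.12 and counted them with HTSeq 0.6.1. The deposited counts are whole reads per gene without normalization, after 3 libraries were removed as outliers by the authors. A table of values normalized by the authors was not used. Of 17565 lines 6 were not genes: 4.87 to 6.32% of reads were ambiguous and 2.57 to 3.80% lay in no feature. Sequencing was done in 2 batches that the labels do not assign to libraries, so batch could not be fitted.

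Counts were tested with edgeR 4.0.16 under R 4.3.3 (with limma 3.58.1), scaling by TMM, and genotype as the only factor, over the 16163 genes that had any read. The standard error is the log2 fold change divided by the square root of F. The authors used DESeq2. On simulated counts of TyrRS-E196K against control (16008 genes) edgeR recovered 83% of genes changed by log2 1 and 92% of those changed by log2 2, with 7 false calls. The changed genes were drawn at random from all genes whose mean reached 1 CPM. Most of the heat shock genes spread far more between libraries than the median gene, so these shares do not hold for them. CPM used the total counts on genes times the TMM factor of the library, and correlations were computed on log2 CPM after adding a prior count of 2. One TyrRS-WT∆NLS library had no matching number and was used without one. The label left over for it carries the number of a TyrRS-WT∆NLS library that the methods list as a removed outlier. Its column in the counts carries a different number. Coordinates come from a BDGP6 annotation that held 17253 of the gene identifiers.

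Named genes are the 10 members, the other Hsp70 copies, Hsp22, w, genes of the fixed lists that were called against control, and the 5 genes most like each anchor. Members and lists were chosen with earlier results of these data known. Intervals were not computed from reads, since the spread between libraries limits precision. Python 3.11.15, numpy 2.4.6, pandas 2.3.3, scipy 1.17.1 and matplotlib 3.10.9 were used for tables, permutation tests and plots.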

Additional observations from a re-analysis of the deposited data

Results flagged for a closer look

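Of 22 groups of 4 libraries checked for a single distant library, 2 had one. The groups were the 10 genes and w in TyrRS-E196K and TyrRS-E196K∆NLS, and genotypes with 3 libraries were not checked. Chance gives about 1 in 20 for independent groups, but these share libraries, and both flags fell on the same library. In TyrRS-E196K∆NLS replicate 4, Hsp83 was at 311 CPM, against 996 to 1020 CPM in the other 3 libraries of the genotype, and DnaJ-1 was at 63.4 CPM, against 132 to 140 CPM. The difference between TyrRS-E196K and TyrRS-E196K∆NLS was not the same as that between TyrRS-WT and TyrRS-WT∆NLS for Hsp70Bb, with an interaction of -1.66 (log2, edgeR adjusted p = 0.00904), or for w, with an interaction of -1.23 (adjusted p = 2.58e-05). Transgene copies were 1 against 3 in the mutant pair and 2 in both wild-type genotypes, and cannot be told apart from the nuclear localization signal.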

How the results depend on the processing

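The alternatives were genes kept by filterByExpr, DESeq2 size factors, DESeq2 1.42.0, only the genotypes compared, 1 surrogate variable (sva 3.50.0), the replicate block and leaving out each library, 23 in all. Values of w and of the other listed genes under them, and Hsp83 as an anchor, were added after seeing the data. Hsp70Bb kept its calls against control, against TyrRS-E196K∆NLS and in the interaction under all 23. Of 2760 values for single genes 2651 kept their direction and their side of the threshold, 28 lost a call, 18 gained one and 63 changed sign. The cause of these changes was not tested.

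The labels' numbers did not pair the libraries: the mean correlation of deviations was -0.011 for the same number (27 pairs, -0.556 to 0.491) and 0.004 otherwise. With the replicate block, which leaves out the unnumbered library, Hsp70Bb differed from control by 4.94, 6.08, 4.83 and 4.43 in TyrRS-E196K, TyrRS-E196K∆NLS, TyrRS-WT and TyrRS-WT∆NLS. The sign changed for Hsp27 in TyrRS-WT against control (-0.002), Hsp26 in TyrRS-E196K against TyrRS-E196K∆NLS (0.015), Hsf (-0.026) and Hsp23 (-0.21) in TyrRS-WT against TyrRS-WT∆NLS and Hsf in the interaction (0.032). The calls of w in TyrRS-WT against TyrRS-WT∆NLS (0.47, adjusted p = 0.0511) and of Hsp67Ba in TyrRS-WT∆NLS against control (-0.57, adjusted p = 0.146) were lost.

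With 1 surrogate variable, the sign of Hsf changed in TyrRS-WT against TyrRS-WT∆NLS (-0.012) and in the interaction (0.019). Hsp67Bc in TyrRS-WT∆NLS against control changed to -0.005 with filterByExpr, -0.005 with DESeq2 size factors, -0.007 with DESeq2 and -0.012 with 1 surrogate variable. In TyrRS-E196K against TyrRS-WT, 0 of the 10 genes were called, but 1, Hsp70Ba, with DESeq2 (-3.25, adjusted p = 0.0153) and 1, again Hsp70Ba, with 1 surrogate variable (-2.95, adjusted p = 0.0455), against -3.20 by edgeR (adjusted p = 0.0572). With only the genotypes compared, w lost its call in TyrRS-E196K against TyrRS-WT (0.48, adjusted p = 0.0755) and in TyrRS-WT against TyrRS-WT∆NLS (0.45, adjusted p = 0.141).

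Leaving out single libraries gave 0 to 2 calls in TyrRS-E196K against TyrRS-WT (Hsp70Ba without TyrRS-WT replicate 2 or 3, Hsp70Ba and Hsp23 without TyrRS-WT∆NLS replicate 1), 1 to 2 in TyrRS-WT∆NLS against control and 0 to 1 in TyrRS-WT against TyrRS-WT∆NLS. Log2 values of genes that changed sign spanned the following ranges. In TyrRS-E196K against control they were -0.027 to 0.057 for Hsf, -0.008 to 0.20 for Hsp67Bc, -0.21 to 0.63 for Hsp70Bbb and -0.51 to 0.24 for Hsp70Bc. In TyrRS-E196K∆NLS against control they were -0.032 to 0.056 for Hsf and -0.24 to 0.061 for DnaJ-1. In TyrRS-WT against control they were -0.26 to 1.22 for Hsp26, -0.93 to 0.71 for Hsp27, -0.038 to 0.058 for DnaJ-1, -0.57 to 1.28 for Hsp70Ab and -0.34 to 0.77 for Hsp70Bc. In TyrRS-WT∆NLS against control they were -0.010 to 0.078 for Hsf, -0.35 to 0.62 for Hsp23, -0.10 to 1.36 for Hsp27, -0.15 to 0.12 for Hsp67Bc, -0.70 to 0.10 for Hsp83, -1.30 to 0.20 for Hsp70Ba and -0.62 to 1.68 for Hsp70Ab. In TyrRS-E196K against TyrRS-WT they were -0.85 to 0.61 for Hsp26, -1.50 to 0.082 for Hsp27 and -0.011 to 0.25 for Hsp70Bb. In TyrRS-E196K against TyrRS-E196K∆NLS they were -0.031 to 0.048 for Hsf, -0.32 to 0.26 for Hsp26, -0.87 to 0.001 for Hsp83 and -0.59 to 0.15 for Hsp70Ba. In TyrRS-WT against TyrRS-WT∆NLS they were -0.019 to 0.048 for Hsf, -0.33 to 0.73 for Hsp23, -1.54 to 0.70 for Hsp26, -1.84 to 0.38 for Hsp27, -1.55 to 0.48 for Hsp68 and -0.23 to 0.58 for Hsp83. In the interaction they were -0.050 to 0.030 for Hsf, -0.78 to 1.47 for Hsp26, -1.87 to 0.35 for Hsp27 and -0.77 to 1.26 for Hsp68.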
